A study of Mus musculus with 6 samples.

Results

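Microglia from the hippocampi of mice that stayed non-helpless in a chronic learned helplessness paradigm were compared with microglia of non-shocked mice. The compared cells were those the authors typed as microglia in the chronic non-helpless library, all of batch 3, and the non-shocked microglia whose batch number was also 3. They numbered 499 and 429 cells, 928 of the 2721 microglia and 3005 cells of all 6 libraries. Live CD45+ cells had been sorted from dissected hippocampi and sequenced one by one in droplets from the 5′ ends of their transcripts, which were counted as unique molecular identifiers (UMIs).

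Both groups were of the strain given as BC57BL/6. Chronic non-helpless mice were given shocks to the feet that they had no way to escape, 180 in number and 0.3 mA in strength, were tested for escape in 30 trials of 24 s, were retested weekly for 3 weeks, and were not helpless. The labels describe the controls as non shocked and do not say whether those mice were placed in the apparatus or tested for escape. The age, the number of mice behind each library, and what defined a batch are not given in the sources used here. Each side was 1 library, so there were no replicates and no test between the groups was possible. Intervals below are exact 95% intervals that cover counting error only, a call is a fold of at least 1.5, and spread between mice is not measured.

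Microglia are the resident macrophages of the brain and depend on signalling through Csf1r and TGF-beta to hold their tissue identity. Chaperones of the Hsp70 and Hsp90 families fold proteins with the help of co-chaperones, and heat shock factor 1 induces many of them when proteins misfold. Glucocorticoids released under stress bind the receptor encoded by Nr3c1, which induces Tsc22d3, Ddit4, Fkbp5 and Per1 in many cell types.

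The chronic non-helpless microglia held 2131424 UMIs, with a median of 4245 UMIs and 1970 genes per cell. The non-shocked microglia held 1698927 UMIs, with a median of 3906 UMIs and 1883 genes. The authors' clusters 1 and 3 were the ones that held cells of both sides. The non-shocked cells lay in clusters 1 (244 cells), 3 (138), 4 (38) and 6 (9), and the chronic non-helpless cells in clusters 1 (95), 2 (228), 3 (80) and 5 (96). Cells with under 2.5% of their UMIs in ribosomal protein genes made up 34.3% (29.8 to 39.0) of the non-shocked and 15.6% (12.6 to 19.1) of the chronic non-helpless microglia. Any part that this difference in ribosomal share has in the results below was not tested, but values without those cells are given where they bear on a result. Over the 21 pairs of libraries and batches, 5 cell barcodes were shared in all.

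Microglial identity matched the label on both sides. Of the 22 homeostatic genes, none was called higher and 1 lower, where 3.73% and 13.3% of all genes were. Their median log2 ratio of chronic non-helpless over non-shocked was 0.037, against 0.027 over all 7320 genes with at least 20 CPM (UMIs of a gene scaled to a total of 1000000 per side) in the higher library. P2ry12, the purinergic receptor that guides microglial processes, stood at 7579 CPM (7462 to 7696) in chronic non-helpless and 6900 CPM (6775 to 7026) in non-shocked microglia. Csf1r, the receptor for the survival factor of microglia, stood at 7713 and 7924 CPM. Both differed by less than 1.5-fold, as did Tmem119, Cx3cr1, Fcrls, Siglech and Sall1. A marker check was passed by 493 of the 499 and 428 of the 429 cells.

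The sums of other cell types' markers were similar on both sides for most lists, and neutrophil, monocyte, erythroid and some B cell genes differed. The 10 neutrophil genes summed to 985 CPM in chronic non-helpless and 8.83 CPM in non-shocked microglia, with 0 and 3 of them at 0. S100a9 and S100a8, calcium-binding proteins of neutrophils, had 981 and 721 UMIs, of which 970 and 717 lay in 5 barcodes. They ranked as the genes with the highest ratios, at 460 against 0.589 CPM and 338 against 2.35 CPM. Among the cells that passed the marker check, the log2 ratio of S100a9 was 2.20 in place of 8.03. That check removes cells with 20 or more UMIs of neutrophil genes, S100a9 among them, so the fall follows from the filter itself. Erythroid genes summed to 4.22 and 38.3 CPM, with 3 and 0 of 7 at 0. The other lists summed to 78.4 and 63.0 CPM for T cells, 16.9 and 15.9 for NK cells, 386 and 312 for B cells, of which Ighm gave 233 and 239, 29.1 and 13.5 for monocytes, and 384 and 350 for border-associated macrophages. Of the B cell genes, Cd79a had 80 and 4 UMIs, Ebf1 41 and 6, and Ms4a1 27 and 2 UMIs in chronic non-helpless and non-shocked microglia. For astrocytes the sums were 206 and 172 CPM, for oligodendrocytes 135 and 122, for neurons 19.2 and 24.1, and for endothelial cells 619 and 577. Their part in the results was not tested.

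Across all genes the differences leaned downward. Of the 7320 genes, 273 (3.73%) were at least 1.5-fold higher in chronic non-helpless microglia and 976 (13.3%) at least 1.5-fold lower. At least 2-fold apart were 36 genes (0.492%) on the higher and 567 (7.75%) on the lower side. The median size of a difference over all genes was 1.18-fold. Within cluster 1, 768 genes were higher and 984 lower, and within cluster 3, 2168 were higher and 1451 lower. Chronic non-helpless cells held fewer UMIs there than non-shocked cells, 552790 and 1254827 in cluster 1 and 196745 and 362381 in cluster 3. Counts under 3 were set to 3, which is a higher CPM on the side with fewer UMIs and limits how low a ratio can fall. The lean within clusters therefore cannot be compared with that over all cells.

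**Figure D1:**
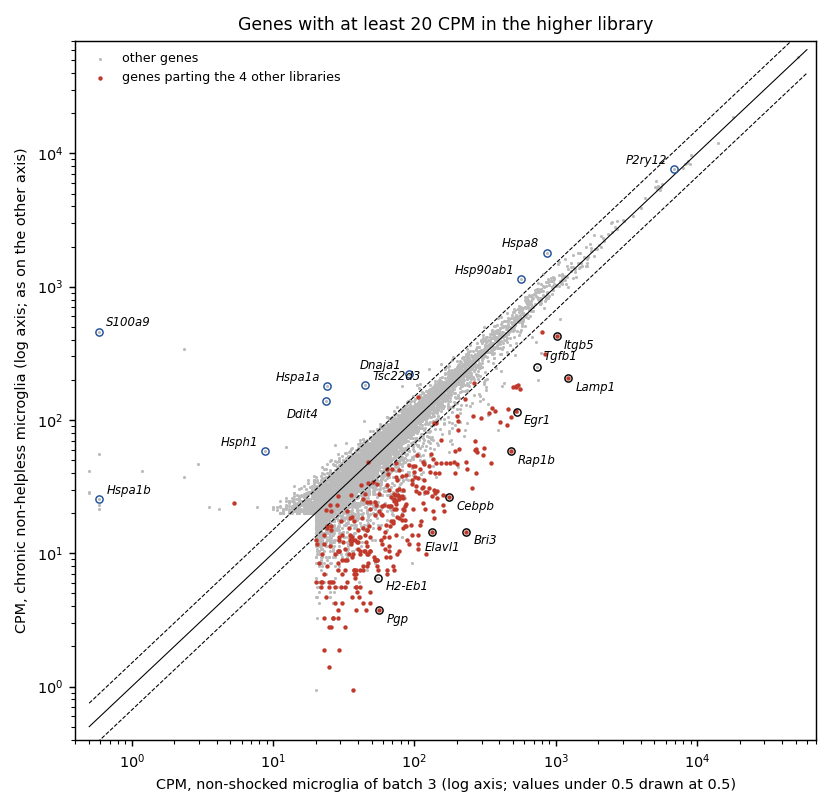
Level of each of the 7320 genes in non-shocked microglia of batch 3 (horizontal, CPM, log axis) and in chronic non-helpless microglia (vertical, CPM, log axis). Red points are genes chosen in 4 other libraries as described in the text; the solid line marks equal levels and the dashed lines 1.5-fold. The homeostatic gene P2ry12 lies near the diagonal, chaperones such as Hspa8 (1798 against 862 CPM) above it, and most red points below it.

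Heat shock chaperones had the highest median of the 25 functional gene lists. Of 19 listed genes, all except Hspb1 and Cryab reached 20 CPM, which left 17. Of these, 15 were at least 1.5-fold higher in chronic non-helpless microglia and none was lower, where 3.73% of all genes were higher. Their median log2 ratio was 0.80, against 0.027 over all genes, and the median lay between 0.70 and 1.04 over the alternatives tried. The sum over the list was 4761 CPM in chronic non-helpless and 2429 CPM in non-shocked microglia, 1.96-fold (1.89 to 2.03).

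Among the Hsp70 proteins, the constitutive Hspa8 stood at 1798 CPM (1742 to 1856) in chronic non-helpless and 862 CPM (819 to 908) in non-shocked microglia, 2.09-fold higher (1.96 to 2.22). The stress-inducible Hspa1a stood at 179 CPM (161 to 198) and 24.1 CPM (17.3 to 32.7), 7.41-fold higher (5.36 to 10.5). Of its 41 non-shocked UMIs, 30 lay in 5 cells. Hspa1b, its near-identical neighbour, had 54 UMIs in chronic non-helpless and 1 in non-shocked microglia, a ratio of 43.0 (7.40 to 1731). Reads shared by the pair could be counted for either gene or for neither, so the split between them is uncertain. Hsph1, the Hsp110 nucleotide exchange factor of Hsp70, stood at 58.2 CPM (48.4 to 69.4) and 8.83 CPM (4.94 to 14.6), 6.59-fold higher (3.84 to 12.1).

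The J-domain proteins, which deliver clients to Hsp70, included 2 called genes. Dnaja1 stood at 220 CPM (201 to 241) and 91.8 CPM (78.0 to 107), 2.40-fold higher (1.99 to 2.89), and Dnajb1 at 180 and 81.2 CPM, 2.21-fold higher (1.82 to 2.71). Dnajb4 was not called, at 65.7 and 54.2 CPM.

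The cytosolic Hsp90 proteins were both called. Hsp90ab1 stood at 1132 CPM (1087 to 1178) in chronic non-helpless and 571 CPM (536 to 608) in non-shocked microglia, 1.98-fold higher (1.84 to 2.14). Hsp90aa1 stood at 182 and 105 CPM, 1.74-fold higher (1.45 to 2.09). The co-chaperone Stip1, which bridges Hsp70 and Hsp90, was 2.02-fold higher (1.47 to 2.81), at 66.6 and 33.0 CPM, but at a log2 ratio of 0.07 within cluster 3 on 8 and 14 UMIs. Cacybp, a binding partner of the ubiquitin ligase Siah1 outside the list, was 2.23-fold higher (1.71 to 2.94), at 98.5 and 44.2 CPM. The co-chaperones Bag3, Chordc1 and Ahsa1 were 1.66-, 1.65- and 1.62-fold higher. Ahsa1 had a log2 ratio of 0.09 within cluster 3 and 0.04 with cells thinned to 1000 UMIs, and Chordc1 of 0.55 with each cell weighted equally. Hsp90aa1 lay at 0.58 within cluster 1, just under the threshold.

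Mitochondrial chaperones lay nearest to the threshold. Hspe1, Hspa9 and Hspd1 were 1.71-, 1.57- and 1.52-fold higher. Hspe1 fell short of 1.5-fold within cluster 1, at a log2 ratio of 0.53, and Hspa9 in thinned cells, at 0.44, and without cells under 2.5% ribosomal UMIs, at 0.50. Hspd1 had a log2 ratio of 0.17 within cluster 1 and of -0.29 within cluster 3, the latter from 8 and 18 UMIs. Hspa4, another Hsp110 protein, stood at 164 and 175 CPM and was not called. The chaperones of the endoplasmic reticulum belong to another list and were not called: Hspa5 stood at 1027 and 903 CPM, 1.14-fold (1.07 to 1.21), and Hsp90b1 at 1196 and 1115 CPM. In that list, the unfolded protein and integrated stress response, none of 12 measured genes was called in either direction and the median log2 ratio was 0.08.

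The chaperone difference was present within both clusters that the sides shared. The list median was 0.83 in cluster 1, with 12 of 17 members at least 1.5-fold higher where 10.7% of genes were. It was 1.03 in cluster 3, with 12 of 17 where 26.6% were. Without cells under 2.5% ribosomal UMIs it was 0.74.

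Both non-shocked batches had the lowest levels of the abundant chaperones Hspa8 and Hsp90ab1, but batch 2 was a weak second control. Its microglia had a median of 905 UMIs per cell, against 3906 in batch 3. Of its 123 microglia, 122 lay in cluster 6, which held no chronic non-helpless cell. Depth, cell state and batch thus varied along with shock across the sets, and their part in the order was not tested. Hspa8 stood at 608 CPM (497 to 735) in the 123 non-shocked microglia of batch 2, below the 862 CPM of batch 3. It stood at 1543 CPM in acute non-helpless, 1400 in acute helpless, 1283 in chronic non-recovered and 1788 in chronic recovered microglia. Hsp90ab1 stood at 459 CPM in batch 2 against 571 in batch 3, and between 865 and 1326 CPM in the 5 shocked libraries. Hspa1a did not keep that order. It had no UMI in batch 2, where 3 counts would be 17.2 CPM, and stood at 32.1 CPM (25.7 to 39.6) in acute helpless microglia, an interval that overlapped the 17.3 to 32.7 CPM of non-shocked batch 3.

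**Figure D2:**
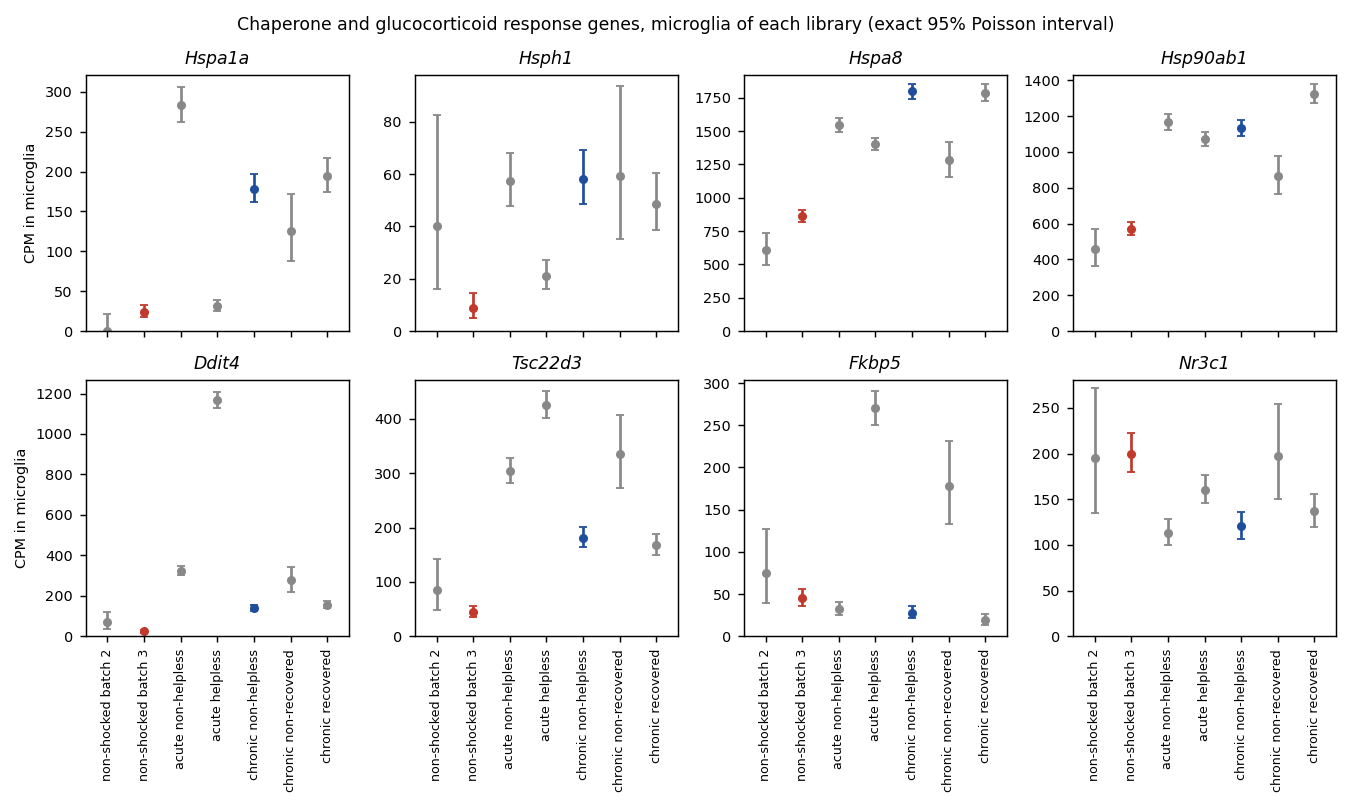
CPM in microglia of each library, with the non-shocked library split by batch, for 4 chaperone genes and 4 glucocorticoid response genes; points are levels and bars exact 95% Poisson intervals, with chronic non-helpless in blue and non-shocked batch 3 in red. Hspa8 and Hsp90ab1 are lower in both non-shocked batches than in all shocked libraries, and Fkbp5 is high in acute helpless and chronic non-recovered microglia.

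The promoters of Hspa1a and Hsph1 are shown because they belong to the most strongly differing chaperone genes. They run from 250 bases before to 50 bases after the start, from RefSeq on GRCm38.p6: Hspa1a at chr17:34972107-34972406 and Hsph1 at chr5:149636287-149636586, both on the minus strand. Capitals mark paired heat shock element units, searched as GAANNTTC and TTCNNGAA. Each motif is its own reverse complement, so both strands are covered, and a match of one can overlap a match of the other.
Hspa1a: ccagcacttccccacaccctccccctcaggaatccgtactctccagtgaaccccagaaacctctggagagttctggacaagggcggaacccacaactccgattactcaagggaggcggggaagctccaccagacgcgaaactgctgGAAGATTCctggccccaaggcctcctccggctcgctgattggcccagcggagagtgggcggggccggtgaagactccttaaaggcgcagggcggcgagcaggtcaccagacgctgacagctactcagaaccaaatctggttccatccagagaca
Hsph1: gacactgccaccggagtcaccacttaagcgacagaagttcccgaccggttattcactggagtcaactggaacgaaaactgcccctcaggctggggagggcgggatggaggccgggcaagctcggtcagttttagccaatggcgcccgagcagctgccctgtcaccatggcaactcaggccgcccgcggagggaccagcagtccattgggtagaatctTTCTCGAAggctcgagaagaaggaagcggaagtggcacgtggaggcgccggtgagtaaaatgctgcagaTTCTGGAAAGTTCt
The Hspa1a window held 1 match and the Hsph1 window 3, of which 2 overlap downstream of the start. At least 1 match was present in 15.1% of all 32851 windows and at least 2 in 1.96%. The Hspa1b window was identical to that of Hspa1a at 296 of 300 positions. Windows were found for 13 of the 17 measured chaperones, too few for a share over the list. At least 1 match was found for 9 of these 13 genes and none for Dnajb1, Ahsa1, Stip1 and Hspa4. A match is a string of letters and not evidence of binding.

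Glucocorticoid response genes split by gene. Of 22 listed genes 11 were measured, 2 were at least 1.5-fold higher and 2 at least 1.5-fold lower, where 3.73% and 13.3% of all genes were, and the median log2 ratio was 0.19. Ddit4, which restrains mTORC1, stood at 138 CPM (123 to 155) in chronic non-helpless and 23.5 CPM (16.8 to 32.1) in non-shocked microglia, 5.86-fold higher (4.20 to 8.37). Tsc22d3, which encodes the anti-inflammatory protein GILZ, stood at 182 CPM (164 to 201) and 44.7 CPM (35.3 to 56.0), 4.06-fold higher (3.17 to 5.26). Of their 294 and 387 UMIs in chronic non-helpless microglia, the 5 cells with the most held 42 and 33, so neither rested on a few cells.

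The receptor and its feedback gene lay on the other side. Fkbp5, a co-chaperone that lowers the hormone affinity of the receptor, stood at 27.7 CPM (21.1 to 35.7) in chronic non-helpless and 44.7 CPM (35.3 to 56.0) in non-shocked microglia, 1.62-fold lower (1.13 to 2.31). It was not past 1.5-fold within cluster 1, at a log2 ratio of -0.58, and level within cluster 3, at 0.019 from 11 and 20 UMIs. Fkbp5 was also the 1 measured member of this list in the set of genes, described below, that parted 4 other libraries. Without it the list median was 0.24. Nr3c1, the receptor, stood at 121 CPM (106 to 136) and 200.1 CPM (179 to 223), 1.66-fold lower (1.41 to 1.96), but at a log2 ratio of -0.45 within cluster 1. Per1, a clock gene, was not called at 20.6 and 14.1 CPM, 1.46-fold (0.87 to 2.51). Sgk1, a kinase, was not called at 721 and 632 CPM, 1.14-fold (1.05 to 1.23).

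Ddit4 and Tsc22d3 were lowest in the non-shocked microglia of the 7 sets, with the limits of batch 2 given above. Ddit4 stood at 68.8 CPM in batch 2, 323 in acute non-helpless, 1168 in acute helpless, 276 in chronic non-recovered and 156 in chronic recovered microglia. The chronic non-helpless level of 138 CPM was the lowest of the 5 shocked libraries, and its interval of 123 to 155 overlapped that of the recovered library, 138 to 176. Fkbp5 ordered the sets otherwise, at 74.5 CPM in batch 2, 32.6 in acute non-helpless, 270 in acute helpless, 178 in chronic non-recovered and 19.1 in chronic recovered microglia.

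Immediate early genes, transcription factors and RNA-binding proteins induced within minutes of a stimulus and also by cell dissociation, were mostly level. Of 29 listed genes 20 were measured, 2 were called higher and 2 lower, with a median log2 ratio of 0.09. Over all genes 3.73% were higher and 13.3% lower. Fos stood at 435 and 407 CPM and Jun at 1658 and 1576 CPM. Zfp36l1, an mRNA decay factor, was 1.53-fold higher (1.43 to 1.63), at 1249 and 818 CPM. Klf2 was 1.56-fold higher (1.10 to 2.24) on 98 and 50 UMIs, but lower within cluster 1, with a log2 ratio of -0.33.

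Egr1 and Jund were the lower members. Egr1, a zinc finger factor, stood at 115 CPM (101 to 131) in chronic non-helpless and 529 CPM (495 to 565) in non-shocked microglia, 4.58-fold lower (3.98 to 5.30). The non-shocked batches differed from each other at this gene, since batch 2 stood at 34.4 CPM (12.6 to 74.8). Jund, an AP-1 subunit, stood at 84.0 CPM (72.1 to 97.2) and 390 CPM (361 to 421), 4.65-fold lower (3.93 to 5.51). Its chronic non-helpless level was the lowest of the 7 sets, of which the next was chronic recovered at 228 CPM (206 to 252).

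The genes with the lowest ratios came from many functions. By ratio they began with Bri3, a small membrane protein, at 14.5 CPM (9.88 to 20.6) in chronic non-helpless and 232 CPM (210 to 256) in non-shocked microglia, 15.9-fold lower (11.1 to 23.8). Pgp, the phosphatase of phosphoglycolate, stood at 3.75 CPM (1.62 to 7.40) and 56.5 CPM (45.8 to 69.0), 15.1-fold lower (7.34 to 35.9). Btbd1, a BTB-domain protein, was 12.2-fold lower (7.76 to 20.1), at 9.85 and 120 CPM. The others with a named role were Slc7a5, a transporter of large neutral amino acids, at 9.57-fold, and Elavl1, the mRNA-stabilising protein HuR, at 9.19-fold. Tcf3, an E-protein transcription factor, was 9.03-fold lower, Ctbp1, a co-repressor, 8.98-fold and Rab43, a small GTPase, 8.86-fold. Ssbp4 was 9.76-fold lower, and Klhdc2, a substrate receptor of ubiquitin ligases, 8.55-fold. Rap1b, a small GTPase of integrin signalling, stood at 58.2 CPM (48.4 to 69.4) and 480 CPM (448 to 514), 8.26-fold lower (6.83 to 10.1).

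These genes also parted libraries outside the comparison. A set of 344 genes (4.57% of 7531) was taken from 4 libraries, without the counts of either compared side. Each gene was at least 1.5-fold higher in both acute helpless and chronic non-recovered than in either acute non-helpless or chronic recovered microglia. This split was chosen after earlier results had shown genes that part the 6 libraries with the compared sides on opposite sides. The direction of the values below was therefore largely known in advance, and they are a description only. Of the 321 genes of this set tested here, 306 were at least 1.5-fold lower in chronic non-helpless microglia and 1 higher, where 13.3% of all genes were lower. Their median log2 ratio was -1.88 (quartiles -2.45 and -1.41), against 0.032 over all candidate genes. The 306 made up 95.3% of the set tested and 31.4% of the 976 lower genes. Of the 12 genes with the lowest ratios, all except H2-Eb1 belonged to it. The 19 genes that parted the 4 libraries the other way had a median log2 ratio of 0.22 over the 14 tested.

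The sum over the set was 10516 CPM in chronic non-helpless and 34527 CPM in non-shocked microglia of batch 3. Non-shocked microglia of batch 2, at a median of only 905 UMIs per cell, stood between these at 24580 CPM and were not used to choose the genes. In the libraries used to choose the genes it was 35769 CPM in acute helpless, 37933 in chronic non-recovered, 11706 in acute non-helpless and 12033 in chronic recovered microglia. The difference between the compared sides was present within cluster 1, with a median of -1.82 and 292 of 317 genes lower where 13.7% of genes were. Within cluster 3 the median was -1.12, with 224 of 309 genes lower where 17.8% were. Counts under 3, set to 3, limit how low a ratio can fall there, so the size within cluster 3 cannot be compared. Without cells under 2.5% ribosomal UMIs the median was -1.91, and without the 321 genes the count of lower genes was 670.

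**Figure D3:**
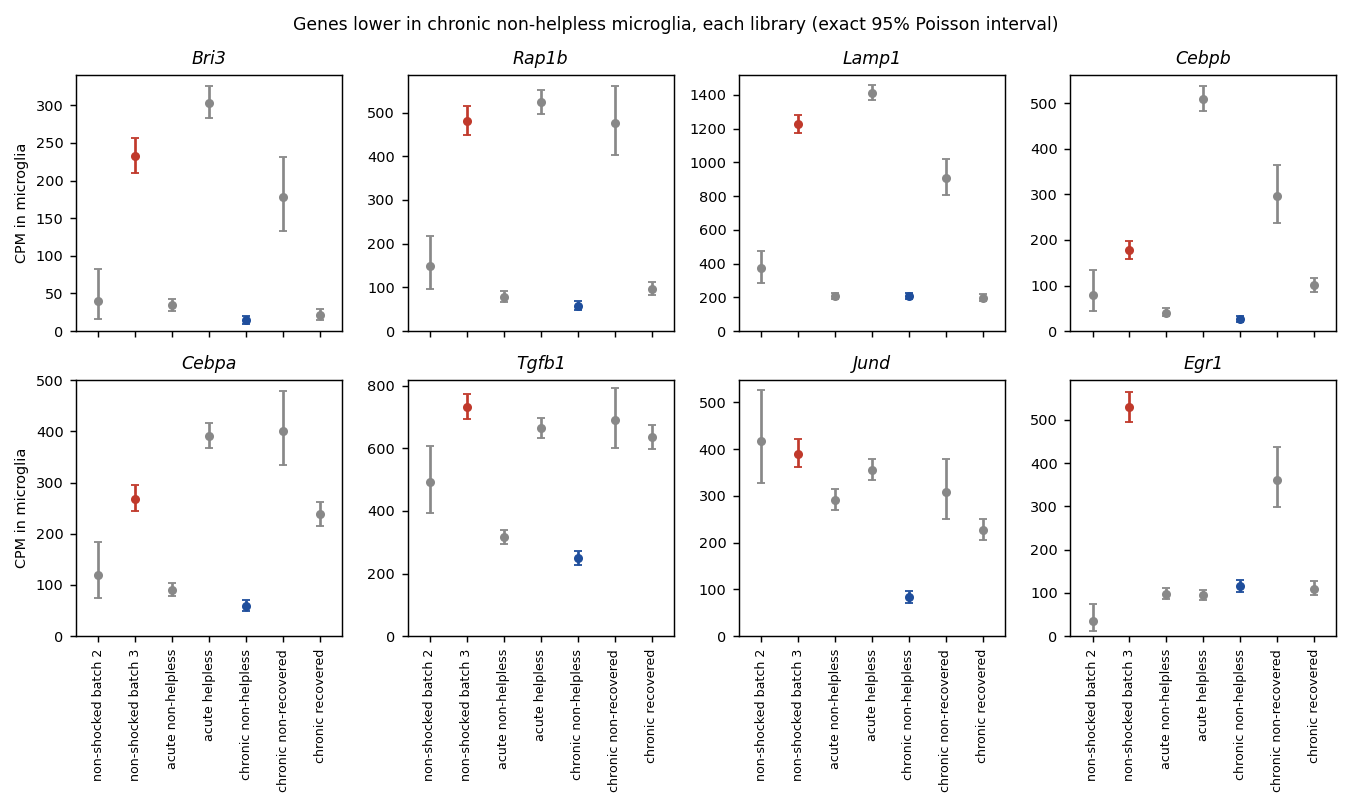
CPM in microglia of each library for 8 genes that were lower in chronic non-helpless (blue) than in non-shocked batch 3 microglia (red); bars are exact 95% Poisson intervals. Bri3, Rap1b, Lamp1 and Cebpb are also low in acute non-helpless and chronic recovered microglia, whereas Jund is lowest in chronic non-helpless microglia and Egr1 is high in non-shocked batch 3 and chronic non-recovered microglia.

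The lower genes were rich in G and C at their 5′ ends, which is where this chemistry reads a transcript. Over the first 400 bases of GENCODE transcripts the median GC content was 57.5% for all tested genes, 62.6% for the 976 lower genes, 56.1% for the 273 higher genes and 64.6% for the 344 genes that parted the other libraries. Transcripts were matched for 96.0% to 98.5% of each group, while fewer than 80% had a promoter window, so the same check on promoters is void. The part of GC content in the difference was not tested. The windows of Pgp and Cebpb, a lower gene described next, are given as examples, from RefSeq on GRCm38.p6. Pgp lies at chr17:24470176-24470475 and Cebpb at chr2:167688665-167688964, both on the plus strand, and capitals mark CG pairs.
Pgp: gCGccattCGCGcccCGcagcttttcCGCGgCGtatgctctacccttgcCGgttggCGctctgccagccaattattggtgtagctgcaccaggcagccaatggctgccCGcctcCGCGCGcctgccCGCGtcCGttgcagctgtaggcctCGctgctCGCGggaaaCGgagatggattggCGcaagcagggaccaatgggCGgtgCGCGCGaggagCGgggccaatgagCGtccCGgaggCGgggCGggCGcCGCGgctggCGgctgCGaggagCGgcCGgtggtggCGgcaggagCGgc
Cebpb: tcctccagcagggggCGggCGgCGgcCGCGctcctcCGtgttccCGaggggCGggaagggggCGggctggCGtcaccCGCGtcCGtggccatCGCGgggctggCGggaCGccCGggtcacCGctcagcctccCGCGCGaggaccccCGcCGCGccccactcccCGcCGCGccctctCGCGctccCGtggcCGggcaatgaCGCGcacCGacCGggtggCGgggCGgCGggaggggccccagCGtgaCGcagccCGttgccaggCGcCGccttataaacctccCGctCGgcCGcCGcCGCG
GC content was 72% with 39 CG pairs in the Pgp window and 80.7% with 50 in the Cebpb window. Both were picked as examples after their values were seen and support no difference between groups of genes.

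Among 20 myeloid transcription factors, all of them measured, 4 were lower and 1 higher, against 13.3% and 3.73% of all genes, and the median log2 ratio was -0.03. The C/EBP family held 3 of the lower genes, all in the set that parted the other libraries. Cebpb, which drives inflammatory gene expression in macrophages, stood at 26.3 CPM (19.9 to 34.1) in chronic non-helpless and 177 CPM (158 to 198) in non-shocked microglia, 6.74-fold lower (5.06 to 9.14). Cebpa, a factor of myeloid differentiation, stood at 59.6 and 268 CPM, 4.50-fold lower (3.69 to 5.53), and Cebpg at 47.4 and 142 CPM, 3.01-fold lower (2.37 to 3.83). Cebpd was not called, at 322 and 289 CPM. Mef2a, an enhancer-binding factor of microglia and the 1 homeostatic gene called, was 1.87-fold lower (1.71 to 2.05), at 387 and 725 CPM, and at a log2 ratio of -0.56, short of the threshold, within each of clusters 1 and 3. Its relative Mef2c stood at 1042 and 1112 CPM. Id2, an inhibitor of E-proteins, was 1.74-fold higher (1.25 to 2.44), at 56.3 and 32.4 CPM, but at log2 ratios of 0.18 and 0.24 within clusters 1 and 3. Spi1, which encodes the lineage factor PU.1, stood at 619 and 616 CPM, and Irf8 and Sall1 were not called.

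TGF-beta signalling had 5 lower genes of 14 measured and none higher, with a median log2 ratio of -0.22, against 13.3% lower over all genes. Without the 2 members of the set that parted the other libraries the median was -0.14. Within cluster 3 it was -0.02, with 4 of 15 measured higher and 4 lower. The ligand Tgfb1 stood at 250 CPM (229 to 272) in chronic non-helpless and 733 CPM (693 to 775) in non-shocked microglia, 2.94-fold lower (2.65 to 3.26). Among the integrins that activate the latent ligand, Itgb5 stood at 425 and 1018 CPM, 2.39-fold lower (2.21 to 2.60), and Itgav at 97.1 and 211 CPM, 2.18-fold lower (1.83 to 2.59). The receptors were not called: Tgfbr1 stood at 1097 and 1101 CPM and Tgfbr2 at 477 and 571 CPM. Smad7, the inhibitory Smad, was 3.92-fold lower (3.13 to 4.95), at 48.3 and 190 CPM. Smad3, a signalling Smad, was 1.66-fold lower (1.20 to 2.31), at 31.9 and 53.0 CPM, but at log2 ratios of -0.53 and 0.08 within clusters 1 and 3.

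Tgfb1 did not follow the libraries as the genes above did. It stood at 635 CPM in chronic recovered and 316 CPM in acute non-helpless microglia, and chronic non-helpless was the lowest of the 7 sets at 250 CPM.

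Over all cells, lysosomal and phagocytic genes were level apart from 2 lower genes of 32, against 13.3% of all genes. The median log2 ratio was 0.0059. Within cluster 3 it was -0.40, with 8 of 32 lower and none higher, where 17.8% and 26.6% of genes were. Lamp1, a membrane glycoprotein of lysosomes, stood at 207 CPM (188 to 227) in chronic non-helpless and 1228 CPM (1176 to 1282) in non-shocked microglia, 5.93-fold lower (5.35 to 6.59). Its relative Lamp2 stood at 555 and 504 CPM. Lamp1 belonged to the set that parted the other libraries. The proteases Ctsd, Ctss and Ctsb stood at 9656 and 9068, 5602 and 5522, and 2555 and 2513 CPM.

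Complement and Fc receptor genes were not called in either direction, 0 of 13 measured against 3.73% and 13.3% of all genes, with a median log2 ratio of 0.02. C1qa, which with C1qb and C1qc builds the recognition molecule of the classical pathway, stood at 8713 and 8609 CPM. C1qb stood at 8518 and 8439 CPM and C1qc at 8309 and 8198 CPM. MHC class I presentation genes likewise held no called gene among 21 measured. The interval of the fold included 1 at each of the 3 C1q genes. Within cluster 3 the median of the complement and Fc receptor list was -0.41.

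**Figure D4:**
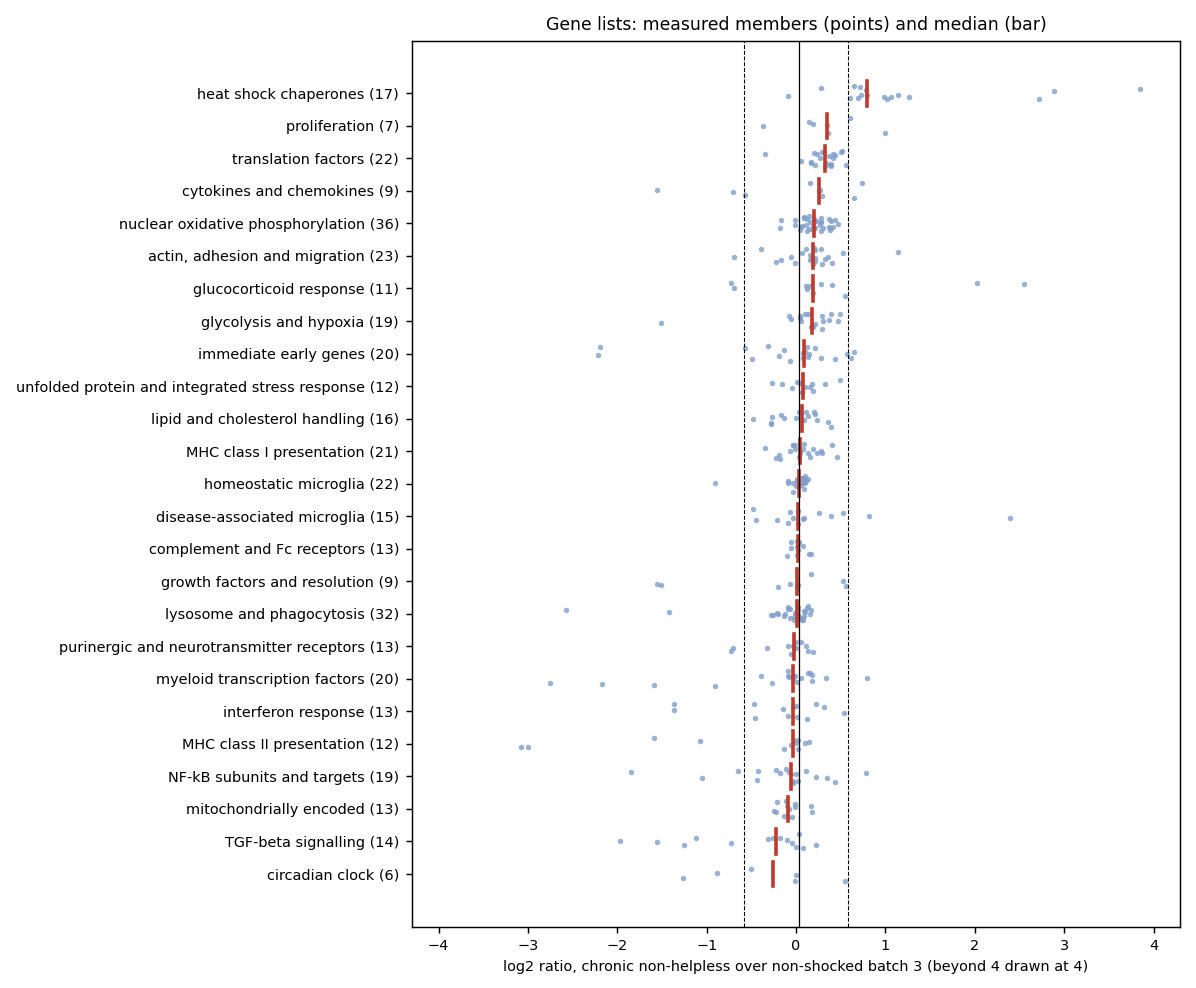
log2 ratio of chronic non-helpless over non-shocked batch 3 microglia for every measured member of 25 gene lists (points; number measured in brackets) and the list median (red bar); the solid line is the median over all genes, the dashed lines mark 1.5-fold, and vertical scatter within a row has no meaning. Heat shock chaperones lie to the right, while most lists have medians near the line for all genes with single members far to the left.

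MHC class II genes were lower through a handful of barcodes. Of 12 measured members 4 were lower and none higher, where 13.3% and 3.73% of all genes were. H2-Aa and H2-Eb1, chains of the molecules that present peptides to CD4+ T cells, stood at 6.57 CPM each in chronic non-helpless and at 52.4 and 55.3 CPM in non-shocked microglia. In the non-shocked cells, 89 of the 89 H2-Aa UMIs and 93 of the 94 H2-Eb1 UMIs lay in 5 barcodes. H2-Ab1 and the invariant chain Cd74 were 3.00-fold (2.01 to 4.55) and 2.10-fold (1.75 to 2.52) lower, with 71 of 86 and 275 of 328 non-shocked UMIs in 5 barcodes. With each cell weighted equally their log2 ratios were -0.48 and -0.22, and in thinned cells -0.58 and -0.04. The chaperones of peptide loading, H2-DMa and H2-DMb1, stood at 199.9 and 200.1 CPM and at 178 and 185 CPM.

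Chemokines and cytokines were called in both directions. Of 9 measured genes 2 were higher and 2 lower, against 3.73% and 13.3% of all genes, the lower ones being Tgfb1 and Ccl12. The median log2 ratio was 0.26 over all cells, -0.40 within cluster 1 and -0.56 within cluster 3. Ccl4 and Ccl3, chemokines that attract myeloid cells and T cells, stood at 125 and 75.3 CPM and at 67.1 and 43.0 CPM, but 213 of 267 and 109 of 143 chronic non-helpless UMIs lay in 5 barcodes. Within cluster 1 both were lower, with log2 ratios of -0.91 and -1.74, and within cluster 3 of -1.41 and -1.03. Ccl12, a ligand of Ccr2, was 1.63-fold lower (1.32 to 2.01), at 76.0 and 124 CPM, but not past 1.5-fold with each cell weighted equally or thinned, at log2 ratios of -0.56 and -0.22. Il1a was not called at 77.4 and 115 CPM, and Tnf, Il1b and Il6 lay under 20 CPM on both sides.

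NF-kB genes held 1 higher and 3 lower of 19 measured, near the 3.73% and 13.3% of all genes, with a median log2 ratio of -0.06. Nfkbia, the inhibitor IkB-alpha, was 1.72-fold higher (1.48 to 1.99), at 265 and 154 CPM. The subunit Relb was 3.60-fold lower (2.21 to 6.06) on 23 and 66 UMIs, but at a log2 ratio of -0.44 within cluster 3. Ier3 was 2.08-fold lower (1.37 to 3.20) and Tnfaip3, the deubiquitinase A20, 1.57-fold lower (1.17 to 2.11), although Tnfaip3 was level within cluster 1 with a log2 ratio of 0.0068. The subunits Nfkb1 and Rel stood at 122 and 131 CPM and at 103 and 103 CPM.

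**Figure D5:**
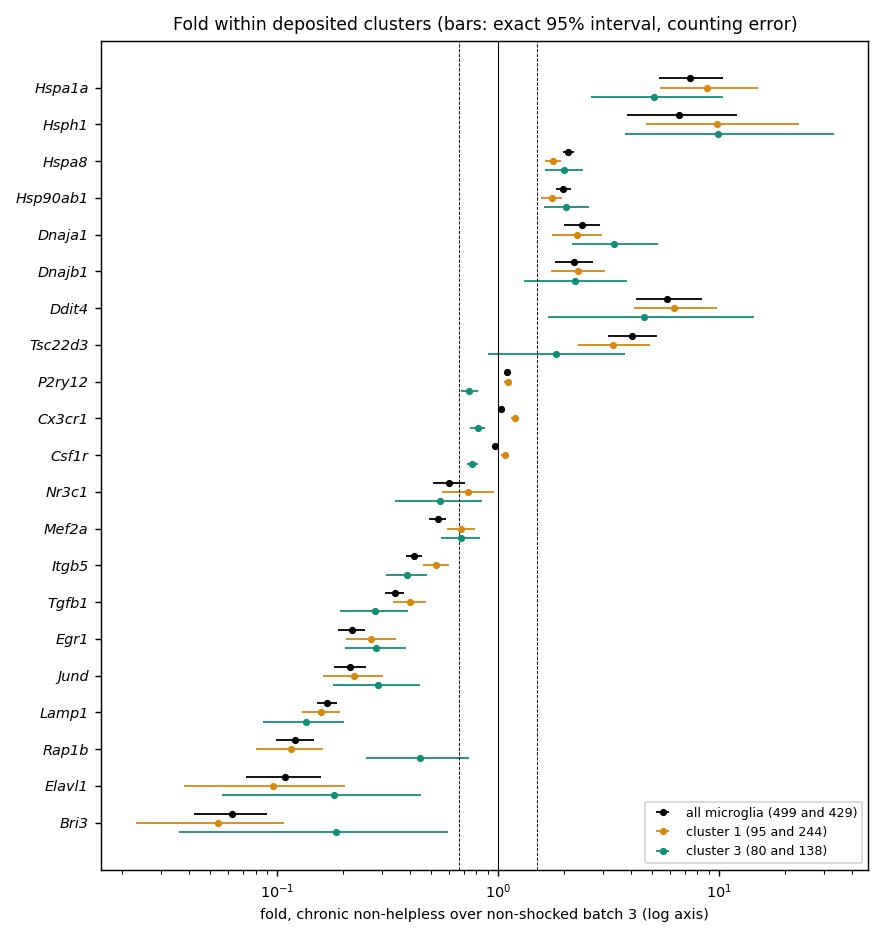
Fold of chronic non-helpless over non-shocked batch 3 microglia (log axis) for 21 genes, over all cells (black) and within the authors' clusters 1 (orange) and 3 (green); bars are exact 95% intervals for counting error and dashed lines mark 1.5-fold. The chaperones Hspa8 and Hsp90ab1 and the lower genes Lamp1, Tgfb1 and Jund keep their side of the 1.5-fold lines in both clusters.

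Among genes with high ratios, Ttr and Lgals3 also came from few barcodes. Ttr, the transthyretin that choroid plexus secretes, had 133 UMIs in chronic non-helpless microglia, 130 of them in 5 barcodes. Among cells with at least 1000 UMIs its log2 ratio was -0.035 in place of 2.34, and among those that passed the marker check 0.0060. Lgals3, a galectin of activated macrophages, had 43 of 46 UMIs in 5 barcodes. Of 15 measured disease-associated microglia genes, Lgals3 and Ank were called higher and none lower, against 3.73% and 13.3% of all genes, and the median log2 ratio was 0.03. Within cluster 1 none of 14 was higher and 3 were lower, and within cluster 3, where the median was -0.41, 3 of 15 were higher and 6 lower. Over all genes 10.7% and 13.7% were higher and lower in cluster 1, and 26.6% and 17.8% in cluster 3. Ank had a log2 ratio of 0.43 within cluster 1 and 0.29 in thinned cells. Apoe, an apolipoprotein of that list, stood at 376 and 525 CPM, a fold of 0.717 (0.651 to 0.789). Its log2 ratio was -1.22 within cluster 1 and -0.18 in thinned cells.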

How the data were processed

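The deposited raw matrices of the 6 libraries hold UMI counts per gene and cell. The authors' deposited cell metadata gave cell type, cluster and batch, and per the file headers also counts of UMIs and genes per cell. The submitters' processing notes name Cell Ranger (2.2.0), Seurat (2.3.4) and the build mm10. The sources used here do not say how cells were filtered, typed and clustered. Normalized and merged copies were not used here.

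Counts were summed over the microglia of each side and scaled to that sum as CPM. The compared sides held 2131424 and 1698927 UMIs. Levels have exact Poisson and ratios conditional exact intervals at 95%, and shares exact Clopper-Pearson intervals. CPM is per 1000000 UMIs. In log2 ratios a count under 3 in either library was set to 3. Genes were tested for size where the higher library had at least 20 CPM, and lists where at least 5 members were measured. With 1 library a side no p-value was computed. Medians over lists are descriptions, and counts of called members are to be read against the 3.73% of all genes called higher and the 13.3% called lower.

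Genes were named from both ends of the ranked ratios, 12 a side, provided the higher library had 50 CPM and 30 UMIs or more. Members of 25 gene lists at least 1.5-fold apart, the 3 most abundant members of each list, and 6 genes of the glucocorticoid response were also named; other members are named as examples chosen after their values were seen. This ranking left out genes of the mitochondrial genome, ribosomal proteins, haemoglobins, antigen receptors and the sex chromosomes' Xist and Y-linked genes, as well as unnamed models and symbols used by 1 annotation only. Some genes that these rules name are not reported here. The members, lists and rules were chosen with earlier results of these data known.

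Doublets were kept. Scrublet called 3 of the 499 and 8 of the 429 compared microglia, and their removal was an alternative. The marker check asked for at least 0.5% of UMIs in 7 microglial genes and under 20 UMIs of neutrophil genes. The ratio step was tested on simulated data. Python 3.11.15 with numpy 2.4.6, scipy 1.17.1, pandas 2.3.3, scanpy 1.11.5 and matplotlib 3.10.9 was used.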

Additional observations from a re-analysis of the deposited data

How the results depend on the processing

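With 17 alternatives, 118 of 1655 values of 140 single genes had the other sign, over 59 genes. Of the 75 genes at least 1.5-fold apart, 29 fell under that size in at least 1 alternative, most often within clusters 1 and 3, and 12 of their values had the other sign. Of 411 values of 26 lists, 40 had the other sign, over 18 lists. The chaperones and the genes parting the other libraries, whose medians were the 2 past 1.5-fold, kept their sign and stayed past 1.5-fold in the alternatives run. The cytokine median was -0.40 and -0.56 within clusters 1 and 3, that of nuclear respiration -0.08 within cluster 1, and that of clock genes 0.03 within cluster 3. The 273 higher genes became 454 with each cell weighted equally, 1077 with cells thinned to 1000 UMIs, 768 within cluster 1, 2168 within cluster 3, 622 at a minimum of 5 CPM, 86 at 50 CPM and 36 at 2-fold. The 976 lower genes became 1626 at 5 CPM, 485 at 50 CPM, 567 at 2-fold and 1431 after thinning, which set 1077 higher beside them. Thinned cells and single clusters hold fewer UMIs. The median of the genes parting the other libraries was -1.12 within cluster 3. The homeostatic median was 0.13 within cluster 1 and -0.34 within cluster 3, and the mean of the chaperones was 1.18. Among genes at least 1.5-fold apart, directions changed for Ttr among cells with at least 1000 UMIs (log2 ratio -0.035); within cluster 1 for Ccl4 (-0.91), Ccl3 (-1.74), Klf2 (-0.33), Tnfaip3 (0.0068) and H2-Ab1 (0.045); and within cluster 3 for Ccl4 (-1.41), Ccl3 (-1.03), Hspd1 (-0.29), Mcm3 (-0.86), Fkbp5 (0.019) and Smad3 (0.083). The cause was not tested.

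The sides shared 2 clusters, and 34.3% of non-shocked against 15.6% of chronic non-helpless cells were ribosome-poor. Cell state and group cannot be told apart. No paired analysis was possible because each group was 1 library. For the same reason no replicate was left out. Genes with fewer than 10 UMIs on the higher side of a setting were given no value there.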

Other observations

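Genes of protein synthesis and respiration were slightly higher as groups in chronic non-helpless microglia without any member past 1.5-fold. Of 22 translation factors, 21 had a log2 ratio above 0, and the median was 0.33, against 0.027 over all genes. Eef1a1, the elongation factor that brings tRNA to the ribosome, stood at 3069 CPM in chronic non-helpless and 2517 CPM in non-shocked microglia, 1.22-fold. Of 36 nuclear genes of oxidative phosphorylation, 32 lay above 0 with a median of 0.20, and Cox4i1, a subunit of cytochrome oxidase, stood at 379 and 280 CPM. The 13 mitochondrially encoded genes had a median of -0.09, with 2 above 0. Ribosomal protein genes held 5.71% of chronic non-helpless and 4.54% of non-shocked UMIs. Within cluster 1 the medians of the translation and nuclear respiration lists were 0.07 and -0.08, and within cluster 3 they were 0.31 and 0.52.

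Glycolytic genes held 1 lower gene of 19 measured, with a median of 0.18. Over all genes 13.3% were lower and 3.73% higher, the background for the counts here. The lower gene was Pdk1, a kinase that inhibits pyruvate dehydrogenase, at 40.8 and 116 CPM, 2.84-fold lower (2.20 to 3.70). Among 6 measured clock genes, Per3 was 2.40-fold lower (1.44 to 4.12), Tef was 1.85-fold lower (1.31 to 2.62) and none was higher. Per3 had a log2 ratio of -0.57 within cluster 1 and Tef of -0.27 within cluster 3. No source used here gives the hour of collection. Of 23 measured genes of actin, adhesion and migration, Iqgap1 had a log2 ratio of 1.14, which was 0.28 among microglia that passed the marker check. Itgb1, the beta-1 integrin, was 1.61-fold lower (1.42 to 1.83), at 203 and 328 CPM, and not past 1.5-fold within clusters 1 and 3, at log2 ratios of -0.45 and -0.46. Of 13 measured interferon response genes, Ifi27l2a and Rtp4 were lower on 18 and 37 UMIs each. All 30 listed interferon genes summed to 678 CPM in chronic non-helpless and 812 CPM in non-shocked microglia, a fold of 0.834 (0.774 to 0.899). The median log2 ratio of the interferon list was -0.038 at the minimum of 20 CPM and -0.64 at 5 CPM. Of 13 receptors for nucleotides and transmitters, the noradrenaline receptor Adrb1 was 1.63-fold lower (1.08 to 2.47) and the GABA receptor subunit Gabbr1 1.65-fold lower (1.28 to 2.15), counts near the background. Adrb1 had a log2 ratio of -0.052 in thinned cells and Gabbr1 of -0.30 within cluster 1 and -0.47 without cells under 2.5% ribosomal UMIs. Of 9 measured growth factors, Vegfb was 2.85-fold lower (1.69 to 4.95) on 22 and 50 UMIs, beside Tgfb1, and of 16 measured genes of lipid and cholesterol handling none was called. Among 7 measured proliferation genes, Stmn1 and Mcm3 were higher, on 60 and 24 and on 118 and 62 UMIs, but Mcm3 was lower within cluster 3, at a log2 ratio of -0.86, and at 0.29 in thinned cells.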
